A study of Mus musculus with 4 samples.

Results

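AP-1 is a dimer of Fos and Jun family proteins that binds the 7-base sequence TGACTCA, which reads as TGAGTCA on the other strand. Jun is a substrate of the JNK kinases, and Fos and Jun proteins are abundant in the epidermis, where AP-1 takes part in keratinocyte proliferation, differentiation and the response to irritation. Many enhancers, the regulatory regions that act at a distance from promoters, carry AP-1 sites. The regions described here lie between genes and hold exactly 1 such site. They were chosen by position and sequence: more than 2 kb from every annotated transcription start site (TSS), with the summit outside every protein-coding gene, and with exactly 1 AP-1 site whose centre base lay within 150 bp of the summit. Of the 82641 regions in the merged atlas of open chromatin, 8170 met this rule. The rule itself uses no measured difference between groups, but the set was chosen with earlier results of these data known.

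Open chromatin was measured by ATAC-seq, in which the Tn5 transposase cuts accessible DNA and tags it for sequencing, in keratinocytes sorted from the skin of mice. The 2 WT libraries came from mice labelled Wild Type, a group for which the methods give littermates as controls in general and also name purchased C57Bl/6 mice, so their origin is not settled for these libraries. The 2 Mapk8-KO libraries came from mice on a C57BL/6 background in which floxed Mapk8, the gene of the kinase JNK1, was deleted by a KRT14-Cre transgene, whose keratin 14 promoter is active in basal keratinocytes. All 4 libraries came from female mice, 8 to 12 weeks of age per the methods, whose skin had received a 5% imiquimod cream (Aldara) for 8 days, and no untreated skin was included. Cells were sorted as EpCam+ CD49f hi after cells with CD45, CD31 or CD140a were gated out. The labels do not say whether animals were pooled, so p-values measure the spread between these libraries only.

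The deposited lists held between 49856 and 69927 peaks per library, and replicate 2 of each genotype was the shallower. Read totals per library are not part of a peak list and are unknown. The measure used throughout is the depth-adjusted pileup, the number of fragments over the summit of a library's peak divided by that library's depth factor, which ranged from 0.740 in Mapk8-KO 2 to 1.33 in Mapk8-KO 1. The Mapk8 promoter (chr14:33446898-33447591, mm10) was called in all 4 libraries, at 79.4 and 87.0 in WT and 81.8 and 121.6 in Mapk8-KO, and a peak list holds no information on the deletion of exons. Of 5 keratinocyte markers, all had a peak within 2 kb of a TSS in every library except Krt5 in Mapk8-KO 2, and the summed level was 147 to 177 in WT and 285 to 302 in Mapk8-KO. The Krt14 promoter carried this gap, at 31.4 and 20.3 in WT and 149 and 147 in Mapk8-KO. The Mapk8-KO mice also carry the KRT14-Cre transgene, whose part in this level was not tested, and without Krt14 the summed level was 126.4 to 145.6 in WT and 137.8 to 152.4 in Mapk8-KO. None of 3 immune markers had a peak in any library, Ptprc included. The fibroblast genes Pdgfra and Col1a1 and the melanocyte genes Dct and Mlana had peaks in all 4 libraries, with summed levels of 52.1 to 57.2 in WT and 60.8 to 61.5 in Mapk8-KO for fibroblasts, and 75.1 to 76.9 against 87.1 to 101.3 for melanocytes. Of the 2 endothelial genes, Pecam1 had a peak in all 4 libraries and Cdh5 in none. The part of other cell types in the results was not tested. A lower pileup can come from fewer cells with the region open or from a less open region in each cell, and these cannot be told apart here.

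Sequences around the site are shown first for the regions that differed most between the genotypes, since every region in the set shares the same 7 bases and differs in what surrounds them. Each run is the plus strand of mm10, 121 bases centred on the AP-1 site, read from the GRCm38 reference, with the site in capitals. The 6 regions with the lowest adjusted p among those higher in WT, named by their nearest protein-coding gene, were as follows.
Plxna2, chr1:194091799-194091919: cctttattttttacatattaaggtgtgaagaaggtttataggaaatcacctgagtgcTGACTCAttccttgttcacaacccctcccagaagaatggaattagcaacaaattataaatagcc
Plxna2, chr1:194506721-194506841: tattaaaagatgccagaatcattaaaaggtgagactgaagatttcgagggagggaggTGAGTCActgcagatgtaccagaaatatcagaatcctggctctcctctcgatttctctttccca
Tusc1, chr4:93881462-93881582: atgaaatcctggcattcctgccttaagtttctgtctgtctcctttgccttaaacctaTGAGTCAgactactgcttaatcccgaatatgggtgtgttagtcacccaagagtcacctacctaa
Tnfrsf1b, chr4:145258189-145258309: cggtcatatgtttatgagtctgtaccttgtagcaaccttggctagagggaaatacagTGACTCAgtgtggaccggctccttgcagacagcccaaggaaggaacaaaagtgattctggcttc
Ndn, chr7:61514922-61515042: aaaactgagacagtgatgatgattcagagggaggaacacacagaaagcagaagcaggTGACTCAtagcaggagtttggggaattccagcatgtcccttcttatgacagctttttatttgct
Col24a1, chr3:145256729-145256849: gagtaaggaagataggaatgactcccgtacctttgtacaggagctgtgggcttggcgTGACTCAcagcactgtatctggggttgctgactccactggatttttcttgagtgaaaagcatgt
The 2 regions higher in Mapk8-KO are shown for contrast. The first also holds a CTCF core 3′ of its AP-1 site.
Nkx2-3, chr19:43630956-43631076: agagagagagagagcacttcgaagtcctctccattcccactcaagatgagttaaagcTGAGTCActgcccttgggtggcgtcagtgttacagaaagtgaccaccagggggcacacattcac
Impad1, chr4:4822236-4822356: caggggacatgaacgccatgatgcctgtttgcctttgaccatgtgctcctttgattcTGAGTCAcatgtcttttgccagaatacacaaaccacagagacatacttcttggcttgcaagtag
The last 4 runs are the region with the highest pileup of the set, the region called in Mapk8-KO only with the highest pileup, and examples near Myc and Ccl20 that did not differ between the genotypes beyond the test's threshold.
Plod2, chr9:93174265-93174385: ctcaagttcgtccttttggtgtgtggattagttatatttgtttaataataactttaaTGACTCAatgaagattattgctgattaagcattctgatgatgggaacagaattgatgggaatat
Cdh11, chr8:102024655-102024775: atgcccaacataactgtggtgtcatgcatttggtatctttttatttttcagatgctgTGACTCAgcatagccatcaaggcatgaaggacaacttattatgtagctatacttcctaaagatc
Myc, chr15:61860629-61860749: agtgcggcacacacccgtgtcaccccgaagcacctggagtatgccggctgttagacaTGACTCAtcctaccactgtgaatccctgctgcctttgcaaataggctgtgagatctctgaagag
Ccl20, chr1:83119985-83120105: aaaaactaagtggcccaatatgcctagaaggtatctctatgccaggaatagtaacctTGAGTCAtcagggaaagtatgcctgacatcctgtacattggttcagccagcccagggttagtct

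The AP-1 site sat close to the summit of accessibility. Its centre lay within 25 bp of the summit in 2978 of the 8170 regions (36.5%, Wilson 95% interval 35.4 to 37.5, counting error only), and the median distance was 36 bp. The rule allowed any position within 150 bp, so the position inside that window was not set by it. Per position, 62.6 regions had the site 6 to 25 bp away, 14.3 had it 76 to 100 bp away and 5.90 in the outermost 25 bp of the window. The highest density lay 21 to 25 bp from the summit, with 83.5 regions per position, and the mean within 5 bp of the summit was lower, at 43.2. Inside those 5 bp the profile was uneven. The summit base itself held the site in 78 regions, while each offset of 1 to 4 bp had 30 to 45. The most frequent single offsets were 23 bp on either side, with 97 and 96 regions.

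The same placement was found when each library's own summit was used. WT 1 gave a share within 25 bp of 35.0%, WT 2 one of 34.2%, Mapk8-KO 1 one of 35.2% and Mapk8-KO 2 one of 32.2%. The 1-site regions in introns, 7681 in number, had the site within 25 bp of the summit in 37.3% of cases (36.2 to 38.4), close to the intergenic value. To see what base composition alone gives, 5 palindromes made by permuting the AP-1 letters were searched in the same way. In these N stands for C or G, and each share is that of the intergenic regions with exactly 1 copy in which it lay within 25 bp of the summit. The share was 21.5% for GTANTAC, while GATNATC gave 17.1%, ATGNCAT gave 18.5% and TAGNCTA gave 17.9%. The last, AGTNACT, gave 26.2%, but it shares letters with extended AP-1 sites: 34.9% of its copies overlapped one, and the share was 20.9% (19.1 to 22.8) among the others.

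**Figure D1:**
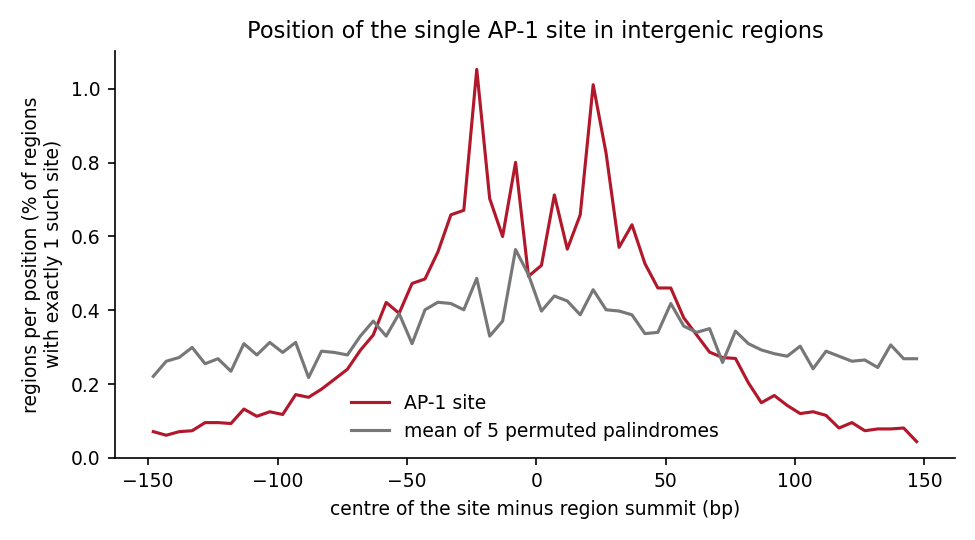
The line for the AP-1 site shows, per base position, the share of the 8170 intergenic 1-site regions whose site centre lay at that offset from the summit (bp, averaged over 5-bp steps), and the grey line the mean over 5 permuted palindromes. AP-1 sites peak on both sides of the summit, 21 to 25 bp away, and thin out towards 150 bp, and the permuted palindromes are also higher near the summit, with a shallower profile.

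AP-1 sites between genes were open more often than their permutations. Of 236399 AP-1 sites in the genome that lay between protein-coding genes and over 2 kb from a TSS, 11057 (4.68%) fell within 150 bp of a summit of the atlas. The 5 permuted palindromes reached 0.270% to 1.41%, the highest being the one that overlaps extended AP-1 sites. Most AP-1 sites between genes thus lay outside every called region. Sites in soft-masked repeats made up 10.4% of the sites in the set and 25.98% of the 223249 intergenic sites outside every called region.

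The bases next to the 7-base core differed between open and other sites. Read so that the core is TGACTCA, the preceding base was T in 8.16% of the set and in 20.8% of intergenic sites outside called regions, and the following base was A in 9.95% against 24.3%. G before the core was found in 33.1% against 22.3%, and C after it in 27.2% against 19.4%. The 9-base form GTGACTCAT made up 9.98% of the set (9.34 to 10.6) and 4.94% of the other sites, a ratio of 2.02, the highest of the 16 forms. The lowest was TTGACTCAA, at 0.808% (0.636 to 1.03) against 5.37%, a ratio of 0.150. Outside soft-masked repeats these ratios were 1.87 and 0.139, and the highest form there was GTGACTCAC, at 1.95. Among regions already open, the flanks went with little difference in level: the median mean pileup ranged from 40.8 to 46.0 over the 16 forms.

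Other motifs were searched within 150 bp of the summit on both strands. AACCGGTT, the palindrome of the GRHL factors of epithelial cells, was found in 0.233% of the set and 0.362% of intergenic regions without an AP-1 site. GGAATG, bound by the TEAD factors of the Hippo pathway, was found in 21.9% of the set (21.04 to 22.8), in 20.2% of intergenic regions without an AP-1 site (19.7 to 20.8) and in 20.3% of intronic 1-site regions. The CTCF core, the central letters of the site of the main insulator protein, was rarer, in 7 of the 8170 regions (0.0857%) against 0.753% of intergenic regions without an AP-1 site. GGGGCGGG, a binding sequence of SP factors, was found in 1.52% against 2.70%. The atlas as a whole held the TEAD letters in 18.4% of regions, the CTCF core in 0.467%, the GRHL palindrome in 0.287% and the SP letters in 7.72%. GC content was similar, with a median of 46.8% in the set and 47.8% in intergenic regions without an AP-1 site.

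Regions of the set were spread over all autosomes and X, at 1.43 per Mb on X and 2.69 to 4.12 per Mb on the autosomes. Their median width was 394 bp, and the median distance to the nearest protein-coding TSS was 49090 bp. Only 13.5% lay within 10 kb of a protein-coding TSS, and 31.1% lay over 100 kb away. Neighbouring regions of the set were a median of 76531 bp apart, and 16.3% of the gaps were under 10 kb.

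They were nearest to 4019 protein-coding genes, a number that happens to equal the count of regions called in all 4 libraries. Of these genes, 2291 had 1 region and 328 had 5 or more. The genes with the most were Gata3, a transcription factor of epidermal and hair follicle lineages, with 24, Myc, a driver of cell growth, with 23, Klf6, a zinc-finger transcription factor, with 20, and Adgrl2, an adhesion receptor of the latrophilin family, with 19. Sox9, a hair follicle stem cell factor, and Cited2, a transcriptional co-regulator, had 18 each. The Myc regions spanned chr15:61503669-62735909 and lay 4605 to 747847 bp from the gene's TSS, and the Gata3 regions lay 43234 to 1074874 bp away. None of the regions of these 6 genes passed the test between genotypes, and their median log2 differences ran from −0.21 for Sox9 to 0.05 for Cited2. Nearness does not show that a region acts on a gene.

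Of the 8170 regions, 4019 (49.2%, 48.1 to 50.3) were called in all 4 libraries and 1527 in a single library. The share called in all 4 was 39.6% among 21522 intergenic regions without an AP-1 site, 47.2% among intronic 1-site regions and 57.2% among 1300 intergenic regions with several sites. WT 1 called 7158 of the set (87.6%), WT 2 5926 (72.5%), Mapk8-KO 1 6829 (83.6%) and Mapk8-KO 2 4470 (54.7%). Over the whole atlas these shares were 83.8%, 65.2%, 83.2% and 59.1%. Mapk8-KO 2 thus called the set less often than the atlas, whereas both WT libraries called it more often and Mapk8-KO 1 about equally.

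In regions called in all 4 libraries, the median depth-adjusted pileup of the set was 44.7 and 44.1 in WT 1 and 2, and 43.5 and 39.2 in Mapk8-KO 1 and 2. Both WT medians lay above both Mapk8-KO medians, and Mapk8-KO 2 stood apart from the other 3. Intergenic regions without an AP-1 site had medians of 35.6, 34.6, 35.3 and 36.5 in the same order, with Mapk8-KO 2 the highest. Those with several sites had 59.6, 60.8, 57.0 and 48.6. Levels were thus higher with more AP-1 sites in every library, and the set was nearer to the intronic 1-site regions, at 43.8, 42.9, 42.0 and 37.8, than to either intergenic class. These classes were compared as descriptions, and the differences between them were not tested.

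**Figure D2:**
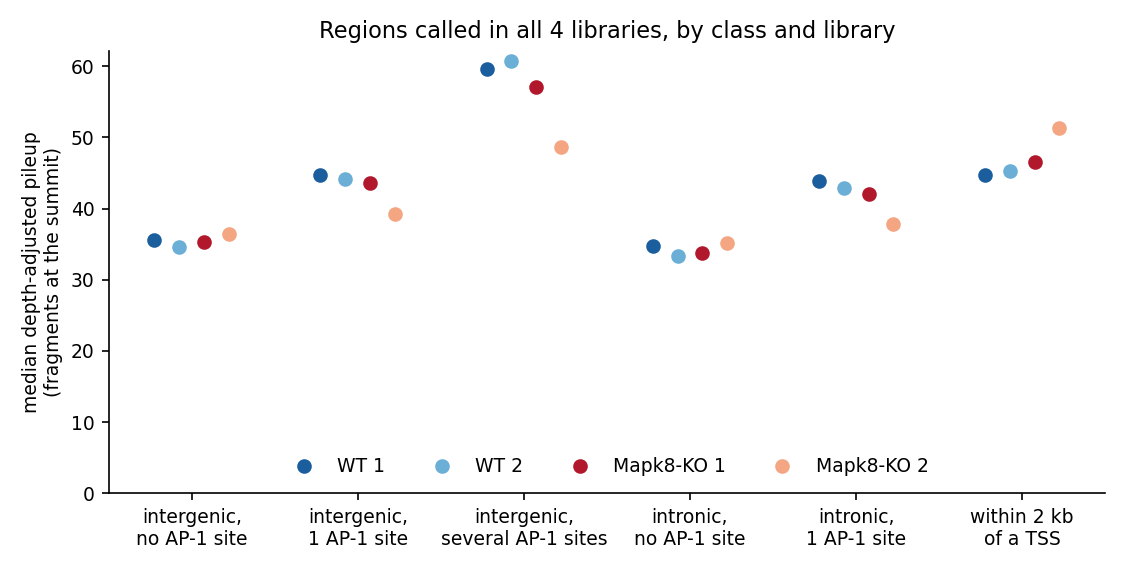
Each point is the median depth-adjusted pileup (fragments at the summit) of 1 library over the regions of a class called in all 4 libraries. Classes with AP-1 sites have Mapk8-KO 2 lowest, at 39.2 for the intergenic 1-site regions, while classes without a site and regions within 2 kb of a TSS have it highest.

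Mapk8-KO 2 was the lowest of the 4 libraries in 1775 of the 4019 regions (44.2%), against 25.6% over all 40159 regions called in all 4 libraries. Across the 4019 regions, Spearman's rho of the pileups was 0.907 for the WT pair and 0.890 for the Mapk8-KO pair, while between genotypes it was 0.915 for the replicate 1 libraries and 0.806 for the replicate 2 libraries. These are correlations across regions, which are not independent replicates, and the libraries compared differ in depth. The similarity of libraries did not follow genotype alone.

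The comparison of genotypes asks which of these regions change accessibility when JNK1 is missing from the epidermis. Log2 depth-adjusted pileups of all 40159 regions called in all 4 libraries were fitted with limma with a variance trend, and p was adjusted over all of them by the Benjamini-Hochberg method with a threshold of 0.05. Of the 4019 intergenic 1-site regions, 49 were higher in WT (1.22%, 0.923 to 1.61), where 0.498% of all tested regions were. In Mapk8-KO 2 were higher (0.0498%, 0.0136 to 0.181), an interval that holds the 0.11% of all tested regions. These calls depended on the fit: none was left without the variance trend (lowest limma adjusted p among the 49 of 0.17) or on log2 fold enrichment, the deposited scale, and 12 and 0 after quantile normalization. The 49 lay on 18 chromosomes, a median of 86795 bp from a protein-coding TSS.

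Before any test, the WT and Mapk8-KO libraries did not overlap in 1143 of the 4019 regions with WT higher (28.4%) and in 617 with Mapk8-KO higher (15.4%). Among all tested regions these shares were 16.9% and 24.6%. The median log2 difference, Mapk8-KO minus WT, was −0.08 in the set, with the middle 50% of regions between −0.30 and 0.11, against 0.05 over all tested regions. The median was 0.05 in intergenic regions without an AP-1 site, −0.16 in those with 2 sites and −0.19 in the 76 regions with 3 or more. Intronic 1-site regions had a median of −0.08. Without Mapk8-KO 2, the median was −0.03 in the set, 0.03 in intergenic regions without a site and 0.03 over all regions tested, so the distance between the set and all regions fell from 0.13 to 0.06. Without Mapk8-KO 1, the median of the set was −0.16 against 0.07 over all regions.

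GC content moved with the difference as well. Within the set, the median log2 difference ran from −0.13 in regions with a GC content of 40% or less to 0.04 in those over 55%. Intergenic regions without an AP-1 site ran from −0.01 to 0.12 over the same steps, and the set lay below them in each of the 5 steps. After a loess curve on GC was removed from each library, the median was −0.01 in the set, 0.10 in intergenic regions without a site and 0.05 over all regions, with 30 and 2 regions called.

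**Figure D3:**
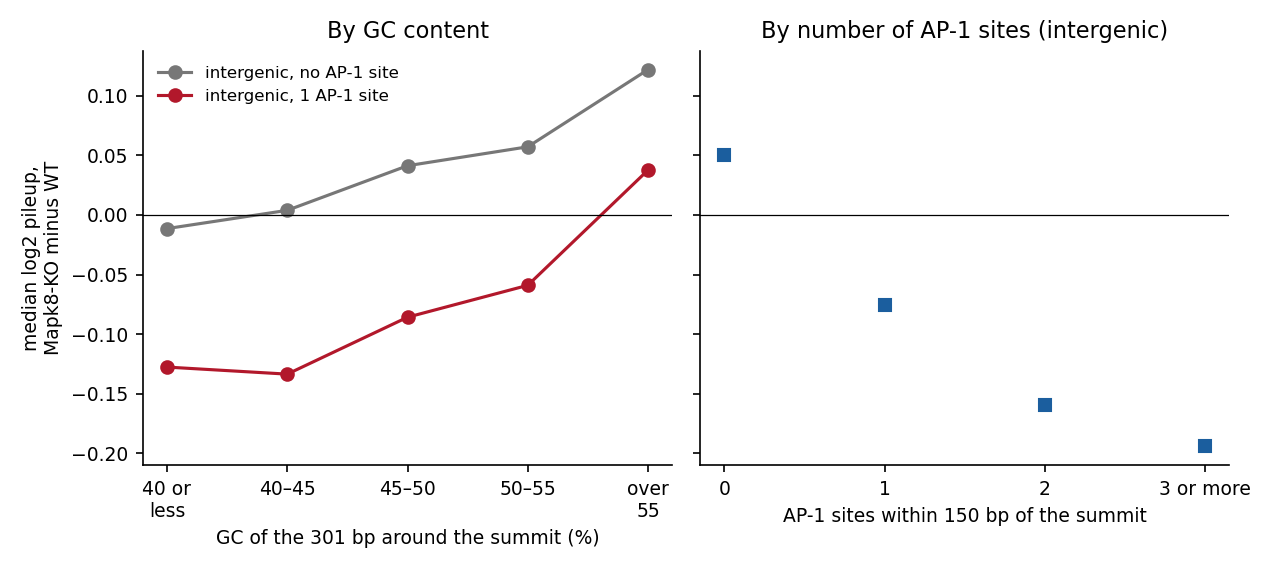
The left plot gives the median log2 pileup difference, Mapk8-KO minus WT, by GC content (%) for intergenic regions with 1 and with no AP-1 site called in all 4 libraries, and the right plot gives it by the number of AP-1 sites within 150 bp of the summit. The 1-site line lies below the no-site line at each GC step, and the medians on the right go from 0.05 with no site to −0.19 with 3 or more.

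The 49 regions higher in WT had fitted log2 differences from −1.41 to −0.64, with a median of −1.01, and in all 49 both WT libraries lay above both Mapk8-KO libraries. Mapk8-KO 2 was the lowest library in 46 of them. Without Mapk8-KO 2, all 49 kept the direction, their median was −0.64, and 7 passed the threshold. Without WT 2, none passed it. On log2 fold enrichment all 49 kept the direction, but their median was −0.50 and 33 had an unadjusted p under 0.05. They did not stand out by the position of the site, which lay within 25 bp of the summit in 36.7% of them and in 34.2% of all 4019 regions. Their median GC content was 44.5%, against 47.8%.

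**Figure D4:**
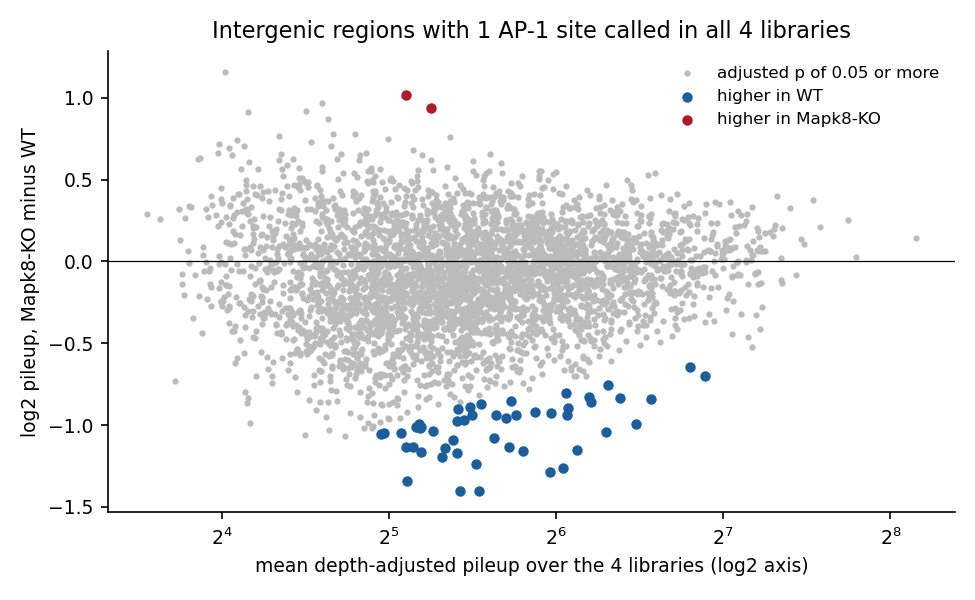
Each point is 1 of the 4019 intergenic 1-site regions called in all 4 libraries, placed by its mean depth-adjusted pileup (log2 axis) and its log2 difference, Mapk8-KO minus WT. The 49 coloured points under the cloud are higher in WT, from −0.64 to −1.41, and the 2 above it are higher in Mapk8-KO.

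The pair near Plxna2, the gene of a plexin receptor for semaphorins, had the lowest adjusted p. The first, chr1:194091649-194092204, lay 528 kb from the gene's TSS and had depth-adjusted pileups of 78.6 and 97.8 in WT against 43.5 and 29.7 in Mapk8-KO. The second, chr1:194506485-194507329, lay 113 kb away and had 88.5 and 95.4 against 49.5 and 29.7. Both were well separated, with the lower WT library about 1.8 times the higher Mapk8-KO library. The log2 differences were −1.28 ± 0.21 (SE) for the first and −1.26 ± 0.21 for the second (limma, adjusted p = 5.3e-05 for both). Without Mapk8-KO 2 they were −0.98 and −0.86, with limma adjusted p of 0.018 and 0.058. The sequence of the first lay to 68.8% in soft-masked repeats, that of the second to 18.9%.

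The region near Tusc1, a tumour suppressor candidate, at chr4:93881357-93881789 and 546 kb from the TSS, had 53.8 and 81.1 in WT and 30.8 and 20.3 in Mapk8-KO. The WT libraries differed from each other here more than in the regions near Plxna2, yet both stayed above Mapk8-KO. Its log2 difference was −1.40 ± 0.24 (SE, limma adjusted p = 0.00011). The region near Ndn, an imprinted gene that encodes necdin, at chr7:61514641-61515312, lay 832 kb from the TSS, with 61.2 and 62.0 in WT and 30.8 and 17.6 in Mapk8-KO. It had the largest fall of the set, −1.41 ± 0.25 on the log2 scale (SE, limma adjusted p = 0.0002), although its Mapk8-KO libraries were far apart.

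Tnfrsf1b encodes the TNF receptor 2. The region at chr4:145257913-145258425, 11.3 kb from its TSS, had 95.1 and 94.2 in WT against 58.5 and 31.1 in Mapk8-KO. The WT libraries were nearly equal and the Mapk8-KO libraries far apart. The log2 difference was −1.15 ± 0.20 (SE, limma adjusted p = 0.00018), and −0.66 without Mapk8-KO 2 (limma adjusted p = 0.31) and so not past the threshold. Col24a1, the gene of a fibrillar collagen, had 2 regions of the set that were higher in WT. The first, chr3:145256526-145257080 and 35.6 kb from the TSS, had 98.4 and 113 in WT against 55.5 and 47.3 in Mapk8-KO, and here both Mapk8-KO libraries lay close together. Its log2 difference was −1.04 ± 0.19 (SE, limma adjusted p = 0.00032), and −0.89 without Mapk8-KO 2 (limma adjusted p = 0.022). The second, chr3:145267985-145268549, singled out after its values were seen, had 68.7 and 85.8 against 33.8 and 35.1, and a log2 difference of −1.16 ± 0.22 (SE, limma adjusted p = 0.00044).

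Over 11 alternative fits, the highest limma adjusted p of these 6 regions with the lowest adjusted p ran from 0.30 for Ndn to 0.77 for the first Plxna2 region. Their smallest log2 differences came on fold enrichment, from −0.88 for Ndn to −0.38 for the first Plxna2 region and −0.32 for the first Col24a1 region, so the sizes given here hold for the pileup.

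Among the other regions higher in WT, 2 lay near Nrp1, which encodes neuropilin 1, a co-receptor that plexins use for semaphorins. They are named here after their values were seen. The first, chr8:127894361-127894727, had 60.4 and 50.1 in WT against 30.8 and 20.3 in Mapk8-KO, and the second, chr8:127879554-127880020, had 38.9 and 42.9 against 28.5 and 13.5. Their log2 differences were −1.14 ± 0.25 and −1.06 ± 0.28 (SE, limma adjusted p = 0.0067 and 0.045), with Mapk8-KO 2 the lowest library in both. Without Mapk8-KO 2 these differences were −0.80 and −0.49. The region nearest to a gene of the cornified envelope, also named after its values were seen, was chr3:92986721-92987117, 5.37 kb from Lce3f in the epidermal differentiation complex. It had 78.6 and 82.3 in WT against 60.05 and 29.7 in Mapk8-KO, so most of the difference came with Mapk8-KO 2 (log2 difference −0.93 ± 0.21 SE, limma adjusted p = 0.0088).

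The 2 regions higher in Mapk8-KO had lower levels. Near Nkx2-3, a homeobox gene, the region at chr19:43630785-43631362, 18.7 kb from the TSS, had 22.3 and 22.7 in WT and 38.3 and 54.0 in Mapk8-KO. It was the 1 region of the set with a CTCF core that was called in all 4 libraries. Its log2 difference was 1.02 ± 0.27 (SE, limma adjusted p = 0.038). Near Impad1, which encodes a Golgi phosphatase, the region at chr4:4822049-4822618 and 29.0 kb from the TSS had 24.8 and 27.4 against 47.3 and 52.7, and the groups were 1.72 times apart. Its log2 difference was 0.94 ± 0.25 (SE, limma adjusted p = 0.047), and neither region passed the threshold when any 1 library other than Mapk8-KO 1 was left out.

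**Figure D5:**
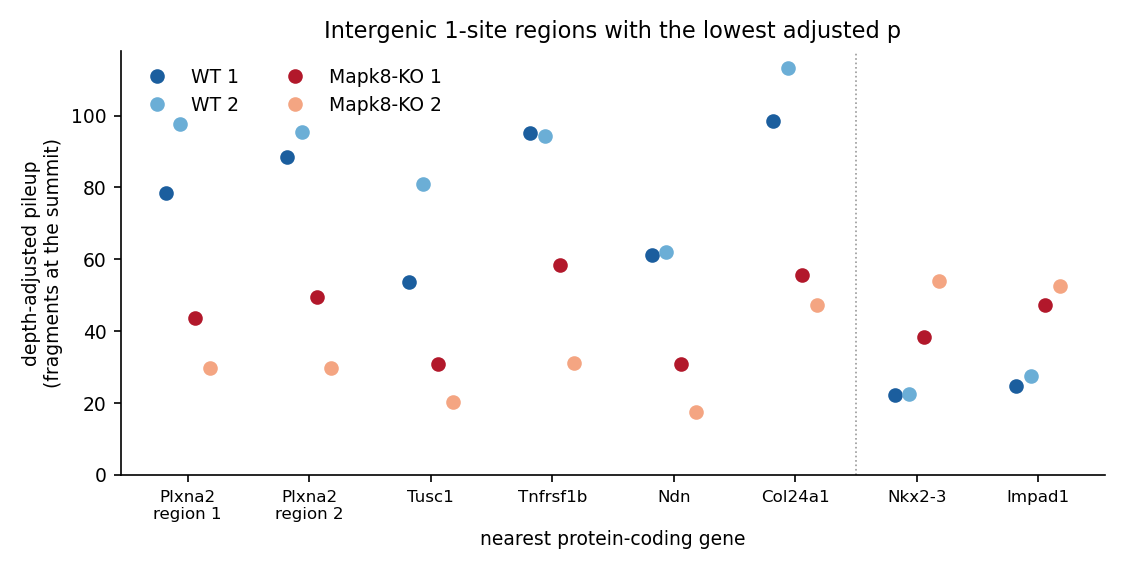
Points give the depth-adjusted pileup (fragments at the summit) in each library for the 6 regions higher in WT and, right of the dotted line, the 2 higher in Mapk8-KO with the lowest adjusted p, named by the nearest protein-coding gene. In each of the 8 regions the WT and Mapk8-KO libraries do not overlap, and Mapk8-KO 2 lies farther from WT than Mapk8-KO 1.

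A second rule, which uses no estimate of spread, counted regions where the lowest library of one genotype was at least 25% above the highest of the other. By it 234 of the 4019 regions were separated towards WT (5.82%, 5.14 to 6.59), against 3.14% of all tested regions, and 60 towards Mapk8-KO (1.49%, 1.16 to 1.92), against 3.08%. Mapk8-KO 2 was the lowest library in 172 of the 234. The largest gap towards WT was 2.24 times, in the region chr15:20436105-20436916, nearest to the acyl-CoA thioesterase gene Acot10, at 45.5 and 53.6 in WT and 18.8 and 20.3 in Mapk8-KO. This region also passed the test, with a log2 difference of −1.34 ± 0.27 (SE, limma adjusted p = 0.0017), and both Mapk8-KO libraries were low in it. The next gap was that of the Ndn region, at 1.99 times, and the one after it, at 1.96 times, was chr8:91698676-91699120, 103 kb from Irx3, an Iroquois homeobox gene, at 24.0 and 23.8 against 12.0 and 12.2. That region did not pass the test (log2 difference −0.98 ± 0.32 SE, limma adjusted p = 0.14). Towards Mapk8-KO, the largest gaps were those of the Impad1 and Nkx2-3 regions, followed at 1.68 times by chr3:58054981-58055619, 207 kb from Pfn2, the gene of an actin-binding profilin. It had 9.10 and 10.7 in WT and 18.01 and 27.0 in Mapk8-KO, and it did not pass the test (log2 difference 1.16 ± 0.33 SE, limma adjusted p = 0.068).

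A further view used the calls alone. Of the 8170 regions, 268 had a peak in WT 1 and WT 2 but in neither Mapk8-KO library (3.28%, 2.92 to 3.69), against 2.17% of the atlas, and 64 had the reverse (0.783%, 0.614 to 0.999), against 1.65%. A missing call is not a level of 0, and these regions were mostly low, with a median of 14.9 and 13.5 in their lower library. The highest called in WT only was chr14:115037195-115037655, 54.7 kb from the glypican gene Gpc5, at 40.5 and 51.3. The next, chr14:46790804-46790988, 2.46 kb from Cnih1, the gene of a cargo receptor of the secretory pathway, had 37.2 and 45.3, and chrX:160601894-160602228, 99.5 kb from Phka2, the gene of a phosphorylase kinase subunit, had 36.4 and 50.1. In all 3 the nearest Mapk8-KO peak lay 1.71 to 2.92 kb away.

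The region called in Mapk8-KO only with the highest level stood far above the rest. At chr8:102024596-102024779, 761 kb from Cdh11, the gene of a cadherin, its depth-adjusted pileups were 195 and 255, the second highest mean of the whole set. The nearest peak of a WT library lay 429 kb away, and the region was 184 bp wide, against a median of 306 bp for those called in Mapk8-KO only. The next was chr1:71458071-71458265, 43.2 kb from Abca12, the lipid transporter of lamellar granules whose loss gives harlequin ichthyosis, at 62.3 and 51.3, followed by chr18:33372735-33372962, 90.6 kb from Nrep, at 42.8 and 35.1. The nearest WT peak to the Abca12 region lay 1035 bp away, and that to the Nrep region 902 bp. None of these 3 could enter the test, which needs a call in all 4 libraries.

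Of the 5 regions with the highest mean pileup, the Cdh11 region could not be tested and none of the other 4 passed the test between genotypes. The highest mean was that of chr9:93174209-93174828, 632 kb from the lysyl hydroxylase gene Plod2, at 239 and 303 in WT and 258 and 340 in Mapk8-KO, so the groups overlapped. The region chr16:76958474-76959335 near the deubiquitinase gene Usp25 had 223 and 218 against 233 and 216. The region chr1:24107397-24108484 near Fam135a had 209 and 182 against 218 and 249, and chr10:99396444-99397143 near Dusp6, the gene of a phosphatase of ERK kinases, had 169 and 187 against 206 and 204. The groups of the Fam135a and Dusp6 regions did not overlap, with Mapk8-KO higher, and the fitted log2 differences were 0.25 ± 0.17 and 0.21 ± 0.16 (SE, limma adjusted p = 0.58 and 0.68). For the Plod2 and Usp25 regions they were 0.14 ± 0.17 and 0.03 ± 0.16 (SE, limma adjusted p = 0.80 and 0.98). Regions with a mean pileup above 80 had a median log2 difference of −0.00066. Those from 40 to 80 had −0.07, those from 20 to 40 had −0.14 and those of 20 or less had −0.0096. Higher in WT were 5 of the 516 tested above 80, 31 of 1730 from 40 to 80, 13 of 1556 from 20 to 40 and 0 of 217 below. Higher in Mapk8-KO were 2 from 20 to 40 and 0 in the other steps. In the whole set 1.22% were higher in WT, and 0.498% of all tested regions were.

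Regions nearest to genes of the JNK and MAP kinase pathway, of the JNK target AP-1 and of keratinocyte biology were then counted by list. For 18 genes of the JNK and MAP kinase pathway, 38 regions lay nearest to 10 of them, and 21 were called in all 4 libraries. Of these 21, 1 was higher in WT and none in Mapk8-KO, where 1.22% of the whole set and 0.498% of all tested regions were higher in WT. The median log2 difference of the 21 was −0.28, against −0.08 in the set and 0.05 over all tested regions. The region that passed, named after its values were seen, was chr1:184271223-184271738, 237 kb from Dusp10, a phosphatase of JNK and p38 kinases. It had 62.9 and 82.3 in WT and 34.5 and 31.1 in Mapk8-KO, with the AP-1 site at the summit base itself and a log2 difference of −1.13 ± 0.22 (SE, limma adjusted p = 0.00097). The 10 genes with regions were Dusp4, Dusp5, Dusp6, Dusp10, Map3k1, Mapk3, Spred1, Spry1, Spry2 and Spry4, with no gene of a JNK kinase itself. Map3k8, the gene of another kinase of the pathway, was not on the list. Its nearby region chr18:4311135-4311588, also named after its values were seen, had 153 and 139 in WT and 105 and 77.0 in Mapk8-KO. The log2 difference was −0.70 ± 0.17 (SE, limma adjusted p = 0.023).

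For the AP-1 subunits and partners, 14 regions lay nearest to Jun, Fosb, Fosl2, Atf3 or Batf3, and none of the 10 called in all 4 libraries passed the test (median −0.09). The highest of them, chr4:95188002-95188578 and 136 kb from Jun, had 121.6 and 126.4 in WT and 162 and 103 in Mapk8-KO. Its groups overlapped, and the log2 difference was 0.06 ± 0.17 (SE, limma adjusted p = 0.94). For the EGF receptor family and its ligands, 12 regions lay nearest to 7 of 11 genes, Egfr, Areg and Hbegf among them. None of the 5 called in all 4 libraries passed (median −0.16). The highest, chr5:91038609-91039038, 11.3 kb from the TSS of the ligand gene Epgn, had 82.7 and 81.1 in WT against 98.3 and 116 in Mapk8-KO. Its groups did not overlap, but the log2 difference of 0.38 ± 0.18 (SE) did not pass the test (limma adjusted p = 0.39).

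The 22 epidermal transcription factor genes had the most regions of any list, 151 near 18 of them, with 96 called in all 4 libraries. None of the 96 passed the test in either direction, 3 were separated towards WT and 2 towards Mapk8-KO, where 3.14% and 3.08% of all tested regions were, and the median log2 difference was −0.05. The highest, chr15:61860395-61861006, 124.7 kb upstream of Myc, had 142 and 150 in WT and 159 and 182 in Mapk8-KO (log2 difference 0.22 ± 0.17 SE, limma adjusted p = 0.65). Keratin genes had 8 regions, 6 of them called in all 4 libraries, and the highest, chr15:101331107-101331523 near Krt80, had 65.3 and 59.6 against 66.8 and 68.9. Cornified envelope and barrier genes had 13 regions, 4 of them called in all 4 libraries, with the highest at chr9:83730821-83731355 near Elovl4, the elongase of very long-chain fatty acids, at 76.1 and 94.2 against 84.8 and 74.3. Neither list had a region past the threshold, and their medians were −0.09 and −0.18. The lists do not hold Lce3f, whose nearby region was higher in WT, so they do not cover every gene of the cornified envelope.

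Adhesion and basement membrane genes had 19 regions, and 8 of the 9 called in all 4 libraries had a fitted difference below 0, with a median of −0.37, the lowest of the 10 lists. Below 0 were 60.9% of the whole set and 42.6% of all tested regions. None of the 9 passed the test, and their differences ran from −0.50 to 0.17. The highest, chr8:128666566-128667265 and 18.7 kb from Itgb1, the integrin beta 1 gene, had 96.8 and 135 in WT and 120 and 98.6 in Mapk8-KO, with the groups overlapping. The TGF-beta and Notch list had 46 regions and 24 called in all 4 libraries, 16 of them with a difference below 0 (median −0.20), against the same 60.9% in the set. None passed, and the highest, chr1:186609806-186610522 near Tgfb2, had 110 and 113 against 123 and 103.

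Cytokine and chemokine genes had 37 regions near 12 of 21 genes found in the annotation, with 18 called in all 4 libraries, none past the threshold and a median of −0.07. The highest, chr1:83119858-83120570, 3.31 kb from the TSS of Ccl20, a chemokine for CCR6-bearing cells, had 115 and 90.6 in WT and 131 and 85.1 in Mapk8-KO. Alarmin and wound protease genes had 8 regions and 5 called in all 4 libraries (median −0.02, none past the threshold). The highest, chr1:107505853-107506443, 5.33 kb from the TSS of Serpinb2, an inhibitor of plasminogen activators, had 115 and 114 against 107 and 113. In the Ccl20 region the genotypes overlapped, and in the Serpinb2 region both Mapk8-KO libraries lay just below both WT libraries (log2 differences 0.05 ± 0.18 and −0.06 ± 0.17 SE).

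At the borders of the rule the values changed little. The 98 regions with the site 141 to 150 bp from the summit had a median log2 difference of −0.10 and 45.9% called in all 4 libraries, and the 98 with it 151 to 160 bp away had −0.10 and 52.0%. Regions of the set 2001 to 3000 bp from a TSS had a median of −0.06, and otherwise matching regions 1001 to 2000 bp from a TSS had −0.09.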

How the data were processed

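ATAC-seq was measured in 4 libraries of sorted keratinocytes, 2 WT and 2 Mapk8-KO. Bowtie2 alignment to mm10, removal of multiply or poorly mapped reads and peak calling per library with MACS2, without a control, were done by the authors. The submitters' processing notes also name Trimmomatic 0.36, STAR 2.5.3, Picard and SAMtools. No Tn5 shift was stated. The deposited lists give the authors' fold enrichment of the summit over local background, −log10 p and −log10 q, a score derived from q, and the summit offset.

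Peaks were merged at 1 bp overlap, and the summit of a region was that of its peak with the highest fold enrichment. TSSs and gene bodies came from GENCODE basic release 21, sites and sequence from GRCm38. Pairs of fold enrichment and −log10 p were solved for the summit pileup (whole to within 0.05 fragments for at least 99.996% of peaks per list). Pileups were divided by each library's median over regions called in all 4 libraries, relative to the geometric mean of the 4 medians. The fit used limma 3.58.1 in R 4.3.3, on log2 values with a variance trend. Requiring a call in all 4 libraries left out 4151 of the 8170 regions. Sets, gene lists and motifs were chosen with earlier results of these data known. Recovery of pileups and the fit were tested on simulated data. Shares have Wilson 95% intervals, from scipy 1.17.1, which cover counting error only.

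Regions were named as follows: up to 6 per direction with the lowest adjusted p, the 3 per direction with the largest gap, the 3 per direction called in 1 genotype only with the highest pileup in the lower library, the 5 with the highest mean pileup, the highest region called in all 4 libraries near each of 10 gene lists, and the 5 genes nearest to the most regions, with ties kept.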

Additional observations from a re-analysis of the deposited data

How the results depend on the processing

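The number of regions, the number called in all 4 libraries and the number of sites within 25 bp of the summit stayed within 1.5 times of their values under all 9, 10 and 6 alternatives. The median log2 difference was negative throughout. Over left-out libraries it ran from −0.16 without Mapk8-KO replicate 1 to −0.030 without Mapk8-KO replicate 2, and after the GC correction it was −0.012. Of 14 alternatives, 13 moved it by less than 1 SD between libraries. That SD was 0.077, about the size of the median itself (−0.076), so a median without any difference would also have stayed within it. The counts of called regions depended on the fit. The 49 higher in WT became 0 without a variance trend (405 at an unadjusted p under 0.05), 0 on log2 fold enrichment (288), 12 after quantile normalization, 30 after the GC correction and 25 with median-ratio centring, an alternative chosen after seeing the data. The 2 higher in Mapk8-KO became 0, 0, 0, 2 and 0, with 84 and 63 at an unadjusted p under 0.05 in the first and second, and 1 among regions with a mean pileup of at least 20. All 49 kept their direction in these fits, with a median of −0.50 on fold enrichment against −1.01. Over all regions tested, 200 calls higher in WT and 44 higher in Mapk8-KO became 86 and 8 with median-ratio centring. Leaving out 1 library gave 0 to 261 higher in WT (limma; 0 without WT replicate 2, where 200 passed an unadjusted p of 0.05) and 0 to 11 higher in Mapk8-KO, the highest both without Mapk8-KO replicate 1. Where a group kept 1 library, it was assumed to vary like the other group. Separated regions numbered 111 towards WT and 22 towards Mapk8-KO on fold enrichment, 46 and 6 at a gap of 1.5, and 446 to 1008 and 206 to 281 without 1 library. Regions called in 1 genotype only numbered 293 to 1518 for WT and 92 to 585 for Mapk8-KO without 1 library, since the rule loosens. Causes were not tested beyond that.

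Replicate numbers are shared by the genotypes in the labels, but nothing says that they pair animals, and deviations of same-numbered libraries correlated at 0.039 over 40159 regions. With the number as a replicate block, 68 regions were higher in WT and 3 in Mapk8-KO, the median stayed at −0.08, and same-numbered pairs were separated in 365 regions towards WT and 108 towards Mapk8-KO. Depth limits the shallow libraries most: a region not called there may be open below the threshold.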
